A study of Arabidopsis thaliana with 12 samples.

Results

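The question was whether a shade signal changes the same genes at 2 positions of axillary bud in Arabidopsis thaliana, and all 12 arrays of the series bear on it. Buds of the Col-8 ecotype, in the Col-0 genetic background, were taken at developmental stage 6.0 from the rosette position labelled bud n, the uppermost, or from the lower position labelled bud n-2. The light held either much or little red relative to far-red (high or low R:FR), which gives 4 groups of 3 arrays: bud n at high R:FR, bud n at low R:FR, bud n-2 at high R:FR and bud n-2 at low R:FR. Per the labels, every plant grew singly in a tube in a split chamber. Days of 18 h at a photon flux of 185 µmol per square metre and second were shared by all groups, as were temperatures of 24 °C in the light and 18 °C in the dark and an earlier cold period of 3 days at 4 °C. No other treatment or genotype is labelled. The labels do not say whether the arrays of a group came from separate plants, or how many buds were pooled, so p-values measure only the spread between these arrays.

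Plants sense neighbours by R:FR because leaves absorb red light and pass far-red light. Phytochromes are photoreceptors that red light activates and far-red light inactivates, and in shade inactive phytochrome B lets PIF transcription factors act, which raises auxin synthesis and stem elongation. In the rosette, shade holds axillary buds back, and buds at different nodes are known to respond to different degrees through auxin, abscisic acid and the branching repressor BRC1. A growing bud needs ribosomes, and cells make them in the nucleolus from ribosomal RNA, ribosomal proteins and a set of assembly factors.

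Each value below is either a signal, the deposited intensity of a probe set on a linear scale, or a response, the mean log2 signal at low R:FR minus that at high R:FR. The difference of responses is the response in bud n-2 minus that in bud n, so a negative difference means a lower response in the lower bud. A probe set passed the test, or was called, at an adjusted p under 0.05 in limma's moderated test, with Benjamini-Hochberg adjustment over all 14295 probe sets tested. Of these, 7794 have a single named gene. Array medians ran from 37.9 to 44.1 with a trimmed mean of 100 on every array, and correlations within groups were 0.977 to 0.988. A probe set is called dim on an array where it lies below the 40th percentile of that array. Of the marker lists for the tissue, the organ polarity genes YAB3 and PHV were above that level on all 12 arrays and the meristem genes LAS and CLV3 below it on all 12. The root gene EXPA7 was also below it on all 12. The lists for flower, leaf mesophyll, vasculature and seed, and that for bud dormancy with BRC1, have no named probe set here.

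The difference of responses passed the test for 147 probe sets, 1.03% of those tested. The lower bud had the lower response in 98 of them, 0.686% of those tested, and the higher response in 49, 0.343%. With 32 added before the logarithm this split became 118 and 112, and with dim values raised to the dim level 118 and 95. The response was smaller in size in bud n than in bud n-2 in 96 of the 98 and 45 of the 49. Median responses in bud n were 0.09 and -0.03, over ranges of -0.68 to 0.71 and -0.95 to 1.15. The fitted responses of the 2 buds had opposite signs in 79 of the 98 and 27 of the 49. The response within bud n passed for 12 probe sets, 0.0839% of those tested, of which 10 (0.07%) rose and 2 (0.014%) fell. Within bud n-2 it passed for 1405, 9.83%, of which 620 (4.34%) rose and 785 (5.49%) fell. The mean response of both buds passed for 561, 3.92%, with 283 (1.98%) rising and 278 (1.94%) falling. At an unadjusted p under 0.05 the counts were 862 in bud n and 3476 in bud n-2.

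Of the 147 probe sets, 25 were reversed, which means that the responses had opposite signs with an unadjusted p under 0.05 in each bud. Of these 25, 19 had a response called in bud n-2 and 0 in bud n. Among the probe sets that were not reversed, 120 had a response called in bud n-2 and none called in bud n, 84 of them falling and 36 rising. These 120 are the bud n-2 class. In 2 the response was graded, with a call of the same sign in both buds and a larger size in bud n-2. No probe set had a called difference with a response called in bud n alone. A missed call in bud n does not show that a response was absent there. Of the 49 probe sets with a higher response in bud n-2, 15 had an unadjusted p under 0.05 in bud n in limma's test. Of the 98 with a lower one, 16 did. In 9 further probe sets both responses were called with the same sign and the difference was not, a class named shared here. A response called in bud n-2 was not thereby shown to differ from that in bud n: among the 620 rises 7.26% had a called difference, and among the 785 falls 12.2%. Of the 147, 74 have a named gene and 73 do not, so the account of functions covers about as many as it leaves out.

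**Figure D1:**
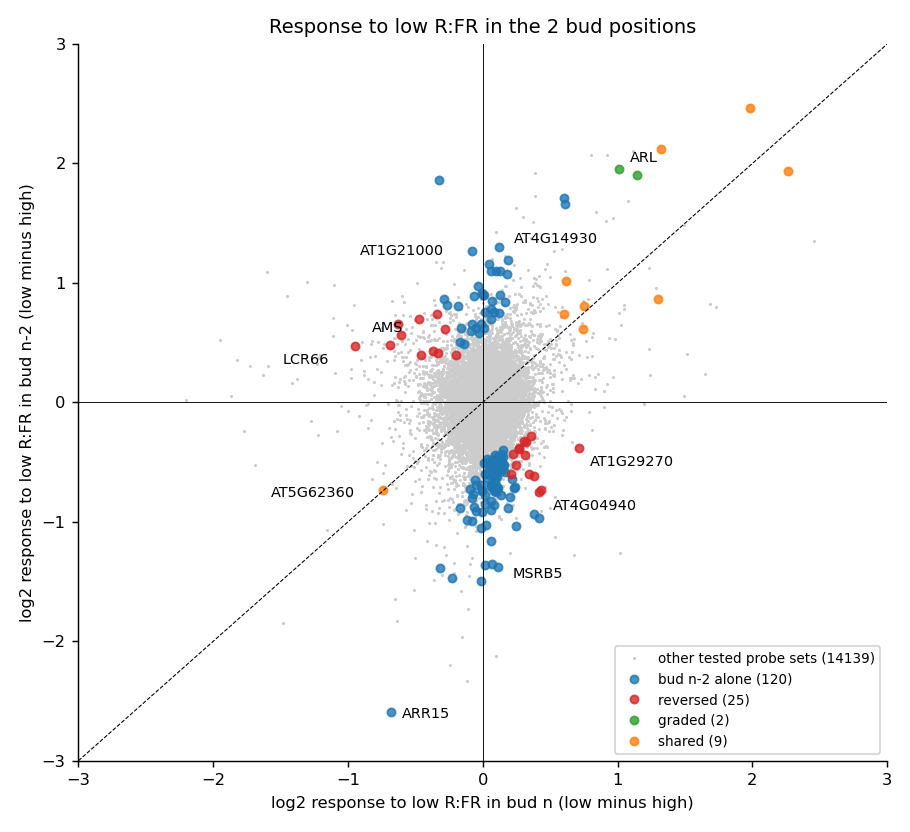
Each point is a tested probe set, with its log2 response to low R:FR in bud n on the x axis and in bud n-2 on the y axis, coloured by class, and the dashed line marks equal responses. The 120 probe sets of the bud n-2 class lie around the vertical axis, with a median response in bud n of 0.06 and ARR15 at -0.68. The 25 reversed ones lie in the upper left and lower right. The 9 shared and 2 graded ones lie in the upper right, apart from AT5G62360 in the lower left. The axes leave out 1 probe set.

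Among the genes with a lower response in bud n-2 were 9 of the ribosome itself and 8 of its assembly. Of 220 loci of cytosolic ribosomal proteins, 128 have a named probe set and 117 were tested. Of these 117, 9 had a negative called difference and 0 a positive one, against 0.686% negative over all probe sets tested. The difference was below 0 in 112 of the 117, with a median of -0.30, while over all probe sets 7084 of 14295 were below 0 and the median was 0.0033. In bud n-2, 29 fell and 0 rose, against 5.49% and 4.34% over all probe sets tested, with a median response of -0.26. In bud n 0 were called, 9 had an unadjusted p under 0.05, and the median response was 0.06.

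Both subunits were represented, and the shares over all probe sets tested were 0.686% with a negative called difference and 5.49% falling in bud n-2. Of 43 small-subunit genes tested 4 had a called difference and 11 fell in bud n-2, with a median difference of -0.31. Of 74 large-subunit genes tested 5 had a called difference and 18 fell in bud n-2, with a median difference of -0.30. The list was written by locus after values had been seen, so it describes these arrays and is no independent evidence of direction. Many ribosomal proteins have near-identical gene copies, and a short probe set can take up RNA of a copy it was not made for.

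AT3G11250, a large-subunit gene, is an example from the reversed class. Its signals in bud n were 332, 343 and 346 at high R:FR and 403, 410.2 and 379 at low R:FR. In bud n-2 they were 312, 316 and 349 at high and 254, 239 and 230.4 at low R:FR. The groups of a bud did not overlap at either position, with the low R:FR arrays on top in bud n and below in bud n-2. The response in bud n-2 was -0.43 (SE 0.08, adjusted p = 0.00340), that in bud n 0.22 (SE 0.08, adjusted p = 0.714), and the difference -0.65 (SE 0.12, adjusted p = 0.0271).

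A further 3 of the 9 were reversed, namely AT1G07070 of the large subunit and AT3G57490 and AT2G45710 of the small subunit. Their differences were -0.80, -0.94 and -0.66, with called falls in bud n-2 of -0.60, -0.60 and -0.39 and responses in bud n of 0.21, 0.34 and 0.26 that did not pass. The other 5 were in the bud n-2 class. Among them AT2G32220, a large-subunit gene, had signals of 172, 158 and 127 at high and 64.8, 91.0 and 89.3 at low R:FR in bud n-2, against 173, 146 and 143 and 135, 157 and 193 in bud n. The arrays of bud n overlapped between light groups and those of bud n-2 did not. Its difference was -0.96 (SE 0.22, adjusted p = 0.0426). For AT3G16780 and AT1G80750 of the large subunit the differences were -0.71 and -0.65, and for AT3G47370 and AT4G30800 of the small subunit -0.63 and -0.55.

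Assembly factors of the ribosome had the same direction, with a lower median. Of 41 loci listed, 20 were tested, and 8 had a negative called difference and 0 a positive one, against 0.686% and 0.343% over all probe sets tested. That 8 became 0 without bud n-2, low R:FR replicate 1, bud n, high R:FR replicate 3 or bud n, low R:FR replicate 3. It became 2 without bud n-2, low R:FR replicate 3, bud n, high R:FR replicate 2 or bud n, low R:FR replicate 1 or 2. The difference was below 0 in 20 of 20, with a median of -0.45, and in bud n-2 14 fell and 0 rose. Over all probe sets tested the difference was below 0 in 7084 of 14295, and in bud n-2 5.49% fell and 4.34% rose. This list too was written after values had been seen, when the 8 called loci were already known. AT3G05060 encodes a NOP58-type protein of the particles that methylate ribosomal RNA. Its signals were 612, 548 and 539 at high and 589, 605 and 577 at low R:FR in bud n, and 530.2, 518 and 529 at high and 300.2, 323 and 357 at low R:FR in bud n-2. The 3 low R:FR arrays of bud n-2 were the lowest of the 12, and the other 3 groups lay within a narrow band. The fall in bud n-2 was -0.69 (SE 0.09, adjusted p = 0.000111), the response in bud n 0.06 (SE 0.09) and the difference -0.75 (SE 0.12, adjusted p = 0.0209).

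AT4G04940 encodes a WD40-repeat protein of the small-subunit processing complex and was reversed. Its signals were 117, 84.9 and 78.9 at high and 119.8, 121 and 128 at low R:FR in bud n. In bud n-2 they were 90.3, 101 and 82.4 and 49.6, 55.0 and 58.1. Neither bud had overlapping light groups. The responses were 0.41 (SE 0.13, adjusted p = 0.573) in bud n and -0.75 (SE 0.13, adjusted p = 0.00225) in bud n-2, with a difference of -1.16 (SE 0.19, adjusted p = 0.0220). The differences of AT3G22660 and AT3G23620, which act in maturation of the large subunit, were -0.80 and -0.69, and that of AT5G62440, a nuclear protein of the DOMINO1 type that embryos need, was -1.07.

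Some other measures of the arrays moved beside these genes, and others moved little. The mean intensity of the 25S ribosomal RNA control went from 1704 ± 26.5 to 1646 ± 163 (SD, n = 3) with low R:FR in bud n and from 2205 ± 115 to 2516 ± 344 in bud n-2. A second actin control, whose 3′ over 5′ signal ratio reflects RNA quality and labelling, went from 4.31 to 4.63 on the log2 scale in bud n and from 4.16 to 4.17 in bud n-2. For this ratio the response in bud n-2 minus that in bud n was -0.31. For the same ratio of the first actin, GAPDH and ubiquitin controls it was -0.07, -0.04 and -0.006. The part of these measures in the result was not tested. The median difference of the ribosomal proteins lay between -0.38 and -0.22 over the 22 alternative settings, and that of the assembly factors between -0.50 and -0.39. The number of ribosomal proteins called was not as steady. It was 5 without bud n-2, high R:FR replicate 2; 1 without bud n, high R:FR replicate 2 and without bud n, low R:FR replicate 2; and 14 without bud n, high R:FR replicate 1. It was 0 without bud n, high R:FR replicate 3, bud n, low R:FR replicate 1 or 3, or bud n-2, low R:FR replicate 1 or 3.

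**Figure D2:**
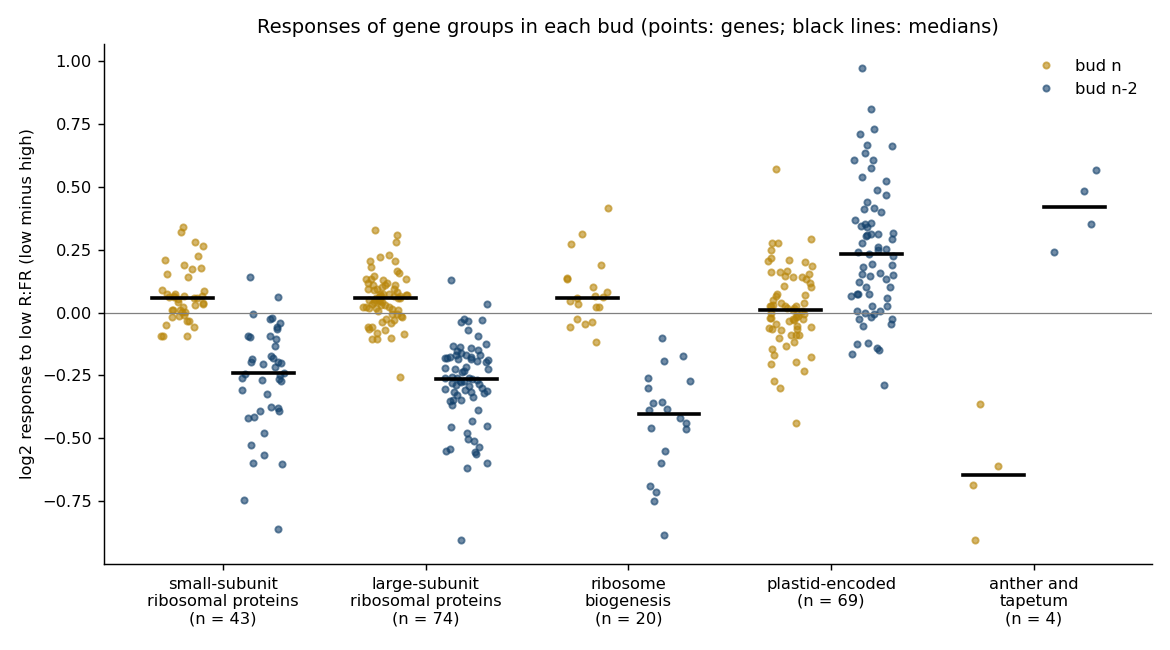
Each point is a gene, with its log2 response to low R:FR (low minus high) on the y axis for bud n (ochre) and bud n-2 (blue), in 5 groups of genes with the number tested under each, and black lines are medians. Ribosomal proteins and assembly factors centre near 0 in bud n and below 0 in bud n-2, plastid-encoded genes lie slightly above 0 in bud n-2, and the 4 anther genes lie below 0 in bud n and above 0 in bud n-2.

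Named genes outside the ribosome lists also fell in bud n-2 with a called difference. AT5G41670 encodes a 6-phosphogluconate dehydrogenase, an enzyme of the oxidative pentose phosphate pathway. Its signals in bud n-2 were 331, 317 and 332 at high and 196, 189 and 189 at low R:FR, and in bud n 327, 310.4 and 300.4 at high and 348, 305 and 298 at low. The light groups overlapped in bud n, and the low R:FR arrays of bud n-2 stood below all 9 others. It fell by 0.77 on the log2 scale in bud n-2 (SE 0.08, adjusted p = 4.08e-05), against a response of 0.02 (SE 0.08) in bud n. The difference, -0.79 (SE 0.12, adjusted p = 0.0107), kept its call with each of 11 of the 12 arrays left out and lost it only without bud n, high R:FR replicate 3.

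Among named genes of this class the lowest fitted response in bud n-2 was that of ARR15, a value that rests on dim arrays. ARR15 is a type-A response regulator that cytokinin induces and that damps cytokinin signalling. Its signals in bud n-2 were 48.8, 77.9 and 97.7 at high R:FR and 7.01, 15.3 and 15.8 at low R:FR. In bud n they were 32.6, 31.0 and 30.6 at high and 18.9, 21.5 and 18.4 at low R:FR. Both buds had lower signals at low R:FR with no overlap, although the response in bud n, -0.68 (SE 0.28, adjusted p = 0.796), did not pass. The 3 low R:FR arrays of bud n-2 were dim, so the fall there is given as at least 3.18-fold (adjusted p = 4.08e-05). The fitted difference was -1.91 (SE 0.40, adjusted p = 0.0338), and with dim values raised it was -0.99 and did not pass (adjusted p = 0.0694; 0.0147 to 0.0958 over the alternatives). MSRB5, a methionine sulfoxide reductase that repairs oxidised proteins, was likewise dim on the low R:FR arrays of bud n-2. Its fall there was at least 1.91-fold (adjusted p = 0.00175), and its difference of -1.50 (adjusted p = 0.0421) became -1.05 with dim values raised (adjusted p = 0.0895; 0.0248 to 0.116 over the alternatives).

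AT2G43550, which encodes a small cysteine-rich defensin-like protein, was bright on every array. Its signals in bud n were 1058, 1123 and 1012 at high R:FR and lay from 955 to 1216 at low R:FR, and in bud n-2 they were 464, 639 and 495 at high and 264, 292 and 215 at low R:FR. The light groups overlapped in bud n and were well apart in bud n-2. The fall in bud n-2 was -1.05 (SE 0.13, adjusted p = 0.000111) and the difference -1.03 (SE 0.18, adjusted p = 0.0271). AT1G54020, a GDSL-type lipase gene, had a difference of -1.22, and AT4G29700, of the nucleotide pyrophosphatase family, one of -0.82. For AT3G06035, which encodes a membrane-anchored glycoprotein, the difference was -0.72, with a response of -0.17 in bud n and -0.89 in bud n-2. AT1G66070, an initiation factor 3 subunit, and AT1G23100, a GroES-type chaperonin, had differences of -0.95 and -0.95. The remaining named genes among the 15 largest negative differences in this class, AT1G04770 and AT1G66940, had values of -0.89 and -0.83.

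Among rising genes of the bud n-2 class, AT1G21000 and AT4G14930 had the smallest p for the difference of all probe sets tested. AT1G21000 encodes a zinc-binding protein of the plant-specific PLATZ family. Its signals in bud n were 31.5, 33.1 and 37.8 at high and 33.3, 34.1 and 29.3 at low R:FR. In bud n-2 they were 143, 134 and 122 at high and 268, 325 and 372 at low R:FR. Bud n thus showed overlapping and low signals in both lights, and in bud n-2 every low R:FR array was above every high R:FR array. The rise in bud n-2 was 2.41-fold, a log2 response of 1.27 (SE 0.13, adjusted p = 2.11e-05), and the response in bud n was -0.08 (SE 0.13). The difference was 1.35 (SE 0.18, adjusted p = 0.00614).

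AT4G14930, a gene of the SurE phosphatase family, had the same pattern at a higher signal. Its arrays read 146, 178 and 172 at high and 181, 174 and 183 at low R:FR in bud n. They read 342, 281 and 299 at high and 663, 737 and 885 at low R:FR in bud n-2. The light groups overlapped in bud n, and in bud n-2 the lowest low R:FR array was well above the brightest high R:FR array. The rise in bud n-2 was 2.47-fold, a log2 response of 1.30 (SE 0.11, adjusted p = 4.01e-06), and the difference was 1.18 (SE 0.16, adjusted p = 0.00614). Both genes kept a called difference with each of the 12 arrays left out.

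GH3.17 encodes an enzyme that joins auxin to glutamate and so removes active auxin. Its signals were 38.5, 37.9 and 47.9 at high and 36.8, 29.0 and 35.7 at low R:FR in bud n. In bud n-2 they were 64.5, 40.9 and 69.9 at high and 103, 95.1 and 114 at low R:FR. Low R:FR arrays lay above all high R:FR arrays in bud n-2 and below them all in bud n. The rise in bud n-2 was 0.87 (SE 0.18, adjusted p = 0.00559), the response in bud n -0.29 did not pass (SE 0.18, adjusted p = 0.919), and the difference was 1.16 (SE 0.25, adjusted p = 0.0379). Its relative WES1, also known as GH3.5, rose in bud n-2 by 1.03 (SE 0.12, adjusted p = 5.30e-05). WES1 had a response of 0.39 in bud n (adjusted p = 0.508), and its difference of 0.64 did not pass (adjusted p = 0.0727, 95% interval 0.29 to 0.99).

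AT4G33150 encodes the enzyme that begins lysine breakdown, lysine-ketoglutarate reductase/saccharopine dehydrogenase. Its signals were 89.6, 78.9 and 103 at high and 133, 181 and 197 at low R:FR in bud n-2, against 61.5, 78.3 and 66.2 and 68.2, 74.3 and 63.5 in bud n. It rose 1.87-fold in bud n-2 (adjusted p = 0.00107), with overlapping light groups in bud n and a difference of 0.90 (SE 0.20, adjusted p = 0.0455). The alpha/beta hydrolase gene AT2G39400 and the tetratricopeptide repeat gene AT1G80130 had differences of 1.01 and 0.90. AT2G41250, of the haloacid dehalogenase-like hydrolases, and AT5G25280, which encodes a serine-rich protein, had differences of 0.77 and 0.68. AT5G18130 and AT2G21560, for which no role is given here, had 0.95 and 0.89. All 6 rose in bud n-2 with adjusted p between 4.08e-05 and 0.00195, and none was called in bud n.

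**Figure D3:**
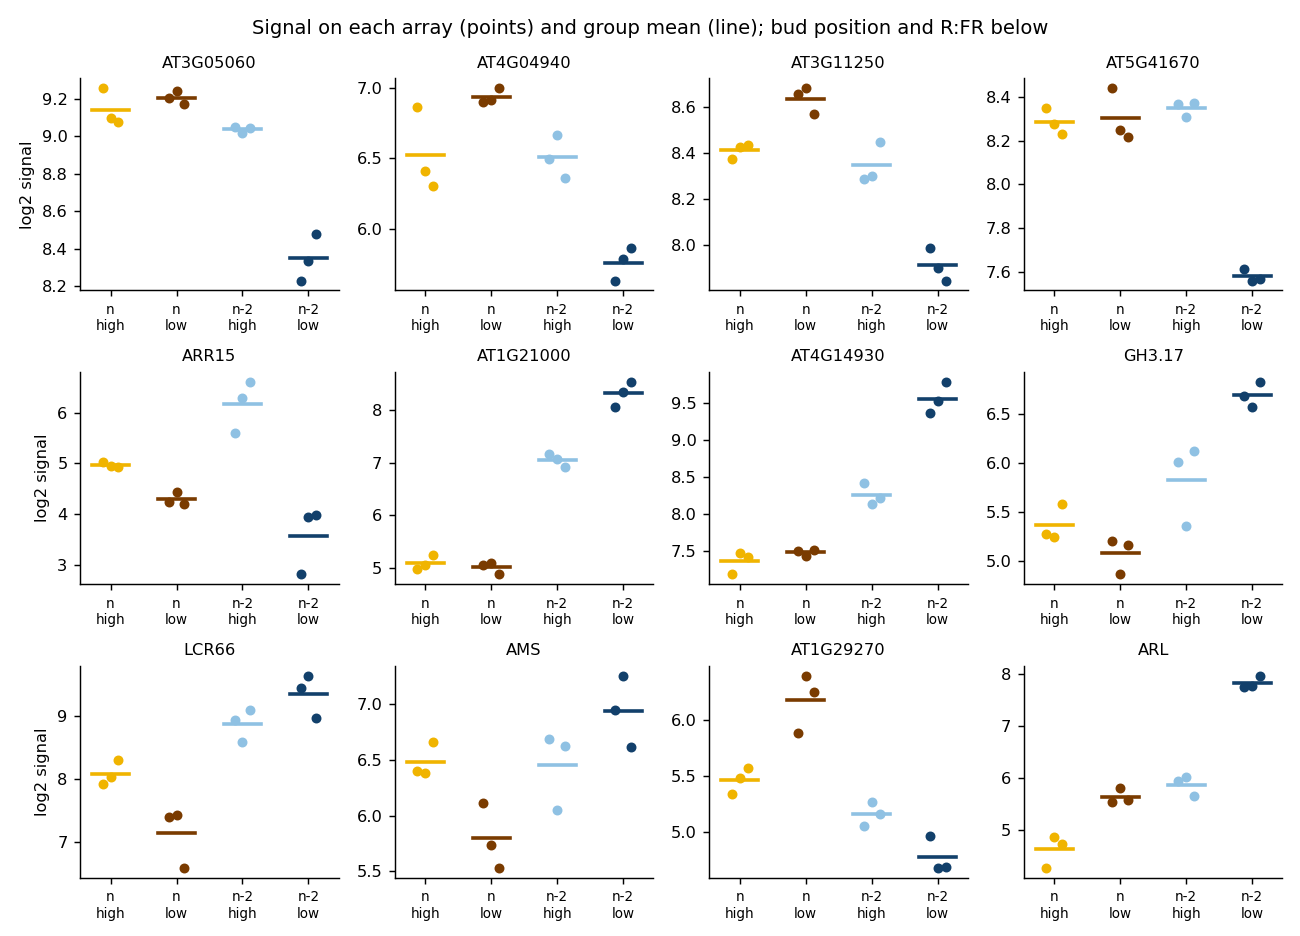
Points are the log2 signals of 12 genes on each of the 3 arrays of a group and lines are group means, in yellow and brown for bud n and light and dark blue for bud n-2, at high and low R:FR in that order; the y axis has its own range in each panel. The top row and ARR15 show falls in bud n-2, AT1G21000, AT4G14930 and GH3.17 rises there, LCR66, AMS and AT1G29270 opposite responses, and ARL a rise in both buds.

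In the reversed class the mean responses of the 2 buds had opposite signs, and the light groups of a bud could still overlap. Of the 25 probe sets, 11 had the higher and 14 the lower response in bud n-2. In bud n-2 the response passed the test for 19 of them, 7 rises and 12 falls, while in bud n it passed for 0 of 25 under the adjustment, so 6 had neither response called. The opposite sign in bud n therefore rests on unadjusted p-values, and the called quantity is the difference.

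LCR66, also known as PDF2.4, a small cysteine-rich plant defensin, had the largest positive difference among named genes. Its signals were 242, 262 and 315 at high and 168, 172 and 96.2 at low R:FR in bud n. In bud n-2 they were 488, 386 and 546 at high and 692, 795 and 498 at low R:FR. The light groups were apart in bud n and overlapped in bud n-2. The response was -0.95 (SE 0.20, adjusted p = 0.115) in bud n and 0.47 (SE 0.20, adjusted p = 0.153) in bud n-2, so neither passed alone, and the difference was 1.42 (SE 0.28, adjusted p = 0.0283).

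AMS, a transcription factor needed for tapetum and pollen development, and sks18, of the SKU5-similar family, belong to the list of anther and tapetum markers. AMS signals were 84.3, 83.6 and 101 at high and 69.4, 53.4 and 46.2 at low R:FR in bud n, and 103, 66.3 and 98.8 at high and 124, 153 and 97.8 at low R:FR in bud n-2. The bud n groups were apart, and 1 low R:FR array of bud n-2 lay within the range of the high R:FR arrays. The response was -0.69 (adjusted p = 0.431) in bud n and 0.48 (adjusted p = 0.111) in bud n-2, with a difference of 1.17 (SE 0.26, adjusted p = 0.0426). For sks18 the responses were -0.61 (adjusted p = 0.508) and 0.57 (adjusted p = 0.0594), with a difference of 1.18 (SE 0.26, adjusted p = 0.0394).

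Of the 8 loci on that list 4 were tested, and the difference was above 0 in 4 of 4, with a median of 1.17, and called in 2. Over all probe sets tested it was above 0 in 7211 of 14295, and 0.343% had a positive called difference. The list was chosen with earlier results of these data known, so it describes these arrays and is no independent evidence of direction. The others were AT5G07230, the tapetum gene A9, with 1.26 (adjusted p = 0.0923), and SPL, which starts spore-forming tissue, with 0.61 (adjusted p = 0.486). The summed signal of the 4 ranged from 407 to 483 at high and 212 to 322 at low R:FR in bud n, and from 566 to 844 at high and 628 to 1234 at low R:FR in bud n-2. Most of this sum was A9, with mean signals at high and low R:FR of 257 and 139 in bud n and 595 and 779 in bud n-2. At high R:FR the mean signals in bud n and bud n-2 were 89.7 and 89.4 for AMS, 58.5 and 38.4 for sks18, and 29.0 and 23.1 for SPL. SPL was dim on 4 arrays. In such bulk samples fewer cells of a type and less RNA per cell cannot be told apart. The part of flower tissue within the buds in other results was not tested.

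**Figure D4:**
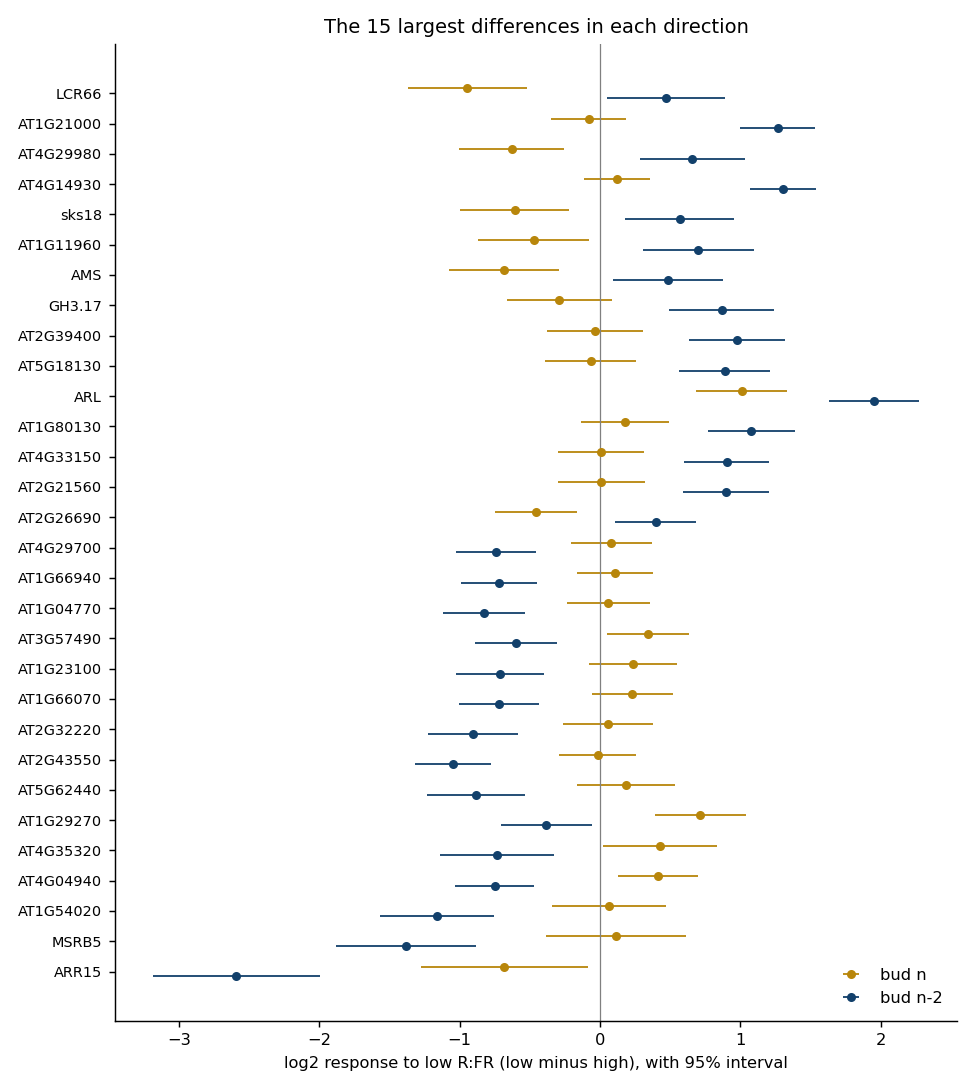
Log2 responses to low R:FR (x axis) with 95% intervals in bud n (ochre) and bud n-2 (blue) for the named genes with the 15 largest called differences in each direction, ordered by the difference. In the upper rows bud n-2 lies to the right of bud n and in the lower rows to its left; for ARL both intervals lie above 0.

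AT4G29980, for which no role is given here, was higher at low R:FR in bud n-2 and lower in bud n. Its signals were 315, 287 and 316 at high and 204, 202 and 187 at low R:FR in bud n, and 154, 78.2 and 129.8 at high and 161, 223 and 171 at low R:FR in bud n-2. Neither bud had overlapping groups, and the response of 0.66 in bud n-2 passed (adjusted p = 0.0273) while that of -0.63 in bud n did not (adjusted p = 0.461). The difference was 1.29 (SE 0.25, adjusted p = 0.0283). AT1G11960, of the OSCA family of membrane channels, had a difference of 1.17, with 2 of its 3 high R:FR arrays in bud n-2 dim. The nitrate and peptide transporter family gene AT2G26690, also known as NPF6.2, had a difference of 0.85 and responses of -0.46 in bud n and 0.40 in bud n-2, neither of which passed.

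AT1G29270, also without a role here, went the other way. Its signals were 40.6, 44.6 and 47.7 at high and 59.1, 84.4 and 76.1 at low R:FR in bud n, and 33.2, 38.4 and 35.6 at high and 31.2, 25.5 and 25.7 at low R:FR in bud n-2. The light groups were apart in both buds, and the larger response, 0.71 (SE 0.15, adjusted p = 0.127), was in bud n. In bud n-2 the response was -0.38 (adjusted p = 0.129), and the difference was -1.10 (SE 0.22, adjusted p = 0.0283). AT4G35320 had a difference of -1.16, with a called fall of -0.73 in bud n-2 (adjusted p = 0.0233).

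ARL, the ARGOS-like gene that promotes cell expansion, was the one named gene of the graded class. Its signals were 19.3, 29.3 and 26.7 at high and 46.3, 56.1 and 47.6 at low R:FR in bud n. In bud n-2 they were 61.7, 64.4 and 50.3 at high and 214, 216 and 249.7 at low R:FR. The low R:FR arrays were above the high R:FR arrays in both buds with no overlap. It rose by 1.01 (SE 0.15, adjusted p = 0.00876) in bud n and by 1.95 (SE 0.15, adjusted p = 1.40e-06) in bud n-2, and the difference was 0.94 (SE 0.22, adjusted p = 0.0458). The other graded probe set has no named gene here and rose by 1.14 in bud n and 1.90 in bud n-2, with a difference of 0.76 (adjusted p = 0.0283).

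Of the 9 shared probe sets 8 rose in both buds and 1 fell. AT5G62360, of the invertase and pectin methylesterase inhibitor family, was the one that fell. Its signals were 187, 159.8 and 153 at high and 103, 97.3 and 97.7 at low R:FR in bud n, and 333, 351 and 316 at high and 179, 187 and 239.6 at low R:FR in bud n-2. The light groups were apart in both buds. The response was -0.74 in bud n (SE 0.11, adjusted p = 0.00876) and -0.73 in bud n-2 (SE 0.11, adjusted p = 0.000677). The difference was 0.01, with a 95% interval of -0.32 to 0.34.

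AT4G28240, a wound-responsive family gene, had signals of 161, 188 and 156 at high and 279, 240.1 and 254 at low R:FR in bud n, and 515, 551 and 405 and 986, 1044 and 928 in bud n-2. It rose by 0.62 (adjusted p = 0.0444) in bud n and 1.02 (adjusted p = 4.48e-05) in bud n-2. The interval of its difference, 0.07 to 0.74, lies above 0, while the adjusted test was not passed (adjusted p = 0.237). AT4G19430, with no role given here, rose by 0.74 in bud n and 0.61 in bud n-2, with an interval of the difference of -0.48 to 0.22. The glycine-rich protein gene AT2G05540 rose by 0.87 in bud n-2 (adjusted p = 0.0233). In bud n all 3 high and 2 of 3 low R:FR arrays were dim for it, so its rise there (adjusted p = 0.0301) is given no size and its difference no interval. The other 5 shared probe sets, all rising, have no named gene here. The largest responses among them were 1.98 in bud n with 2.46 in bud n-2 for one probe set, and 2.26 with 1.94 for another.

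Genes of shade and hormone pathways were sparsely named. Over all probe sets tested, 1.03% had a called difference and 14.9%, 2127 of 14295, an unadjusted p under 0.05 for it, and the small counts below stand against those shares. Of 26 shade avoidance and light signalling loci 4 were tested, 0 had a called difference in limma's test and 2 had an unadjusted p under 0.05. HYH, the HY5 homologue that promotes light development, fell in bud n-2, with a response of -0.65 (adjusted p = 0.0309), and its difference was -0.57 (adjusted p = 0.308, 95% interval -1.11 to -0.03). FHL, which carries phytochrome A into the nucleus, was dim on all arrays of 3 groups and not in bud n-2 at low R:FR, and its response there did not pass (adjusted p = 0.182). The homeobox gene HAT2, which auxin induces, had a difference of 0.22, and BIM1, a brassinosteroid signalling factor, one of 0.34. Their intervals, -0.10 to 0.53 and -0.03 to 0.71, both include 0.

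Of 8 auxin genes tested 1 had a called difference, GH3.17, and of 2 cytokinin genes 1, ARR15. The gibberellin receptors GID1A, GID1B and GID1C had differences of -0.36, 0.39 and 0.56, and none passed (adjusted p = 0.353, 0.431 and 0.371). GID1C was dim on all 6 arrays of bud n, and with dim values raised its difference passed (adjusted p = 0.0463). Of 5 abscisic acid and cold genes tested 0 had a called difference in limma's test and 2 had an unadjusted p under 0.05. COR15A, a chloroplast protein that protects membranes in frost, had responses of -0.79 in bud n and -0.50 in bud n-2, neither of which passed. COR15B fell in bud n-2, with a response of -0.63 (adjusted p = 0.0197) and a difference of -0.39, and COR47 and LEA4-5, dehydration proteins, had differences of 0.35 and 1.07 that did not pass.

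AKINBETA1, a subunit of the energy-sensing SnRK1 kinase, rose in bud n-2 by 0.73 (SE 0.09, adjusted p = 0.000150). Its signals there were 271, 242 and 233 at high and 383, 439 and 416 at low R:FR, and in bud n 142, 152 and 137 at high and 171, 160.0 and 185 at low. The groups were apart in both buds, with a response of 0.26 in bud n (adjusted p = 0.712) and a difference of 0.47 that did not pass (adjusted p = 0.0896, 95% interval 0.20 to 0.75). Of 11 autophagy genes tested, 3 rose in bud n-2, against 4.34% over all probe sets, 0 had a called difference and 1 had an unadjusted p under 0.05 for it, which is no more than the share over all probe sets. The 3 were ATG8E, ATG8F and AT5G66930, at 0.61, 0.38 and 0.46; the first pair encode ubiquitin-like proteins of the autophagosome membrane.

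Of 69 plastid-encoded genes tested 4 (5.80%) rose in bud n-2, close to the 4.34% over all probe sets. None had a called difference (0 of 69 in limma's test), 8 (11.6%) had an unadjusted p under 0.05 for it, below the 14.9% over all, and the median difference was 0.17. The rises were those of petA and petN, subunits of the cytochrome b6f complex, atpH, of the ATP synthase, and psbN, which assists photosystem II, at 0.61, 0.71, 0.81 and 0.64. For psbN the response in bud n was 0.57, close to that in bud n-2, although it did not pass (adjusted p = 0.431). Of 10 expansin and xyloglucan enzyme genes tested, which loosen or remodel walls, 3 fell in bud n-2, against 5.49% over all probe sets, and 0 had a called difference, with 4 at an unadjusted p under 0.05. XTH32, EXPA15 and EXPA4 fell by 0.92, 0.80 and 0.29 on the log2 scale, and the differences of XTH32 and EXPA15 were -0.80 and -0.55 (adjusted p = 0.0627 and 0.0622). XTH16 had responses of 0.40 in bud n and -0.39 in bud n-2, with a difference of -0.78 (adjusted p = 0.0730). JAL23, a jacalin-related lectin, fell in bud n-2, with a response of -1.31 (adjusted p = 0.00756), and its difference of -1.23 did not pass (adjusted p = 0.143).

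The number of called differences depended on single arrays. Of the 147, 2 kept their call with each of the 12 arrays left out, and the median was 4 of 12 cases. The number called was 264 without bud n, high R:FR replicate 1, and 175, 159 and 111 without bud n-2, low R:FR replicate 2, high R:FR replicate 1 and high R:FR replicate 3. It was 82 without bud n-2, high R:FR replicate 2, and 8 without bud n-2, low R:FR replicate 1 or replicate 3. Without bud n, high R:FR replicates 2 and 3, it was 19 and 2, and without bud n, low R:FR replicates 1, 2 and 3, it was 18, 16 and 4. With a prior variance that does not follow the signal, 0 were called, with a smallest adjusted p of 0.0793, and 2038 had an unadjusted p under 0.05. The arrays that fitted their group least, by array weights of 0.378 and 0.454, were bud n-2, high R:FR replicate 2 and bud n, high R:FR replicate 1, and without both of them 257 were called, 114 of them among the 147.

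**Figure D5:**
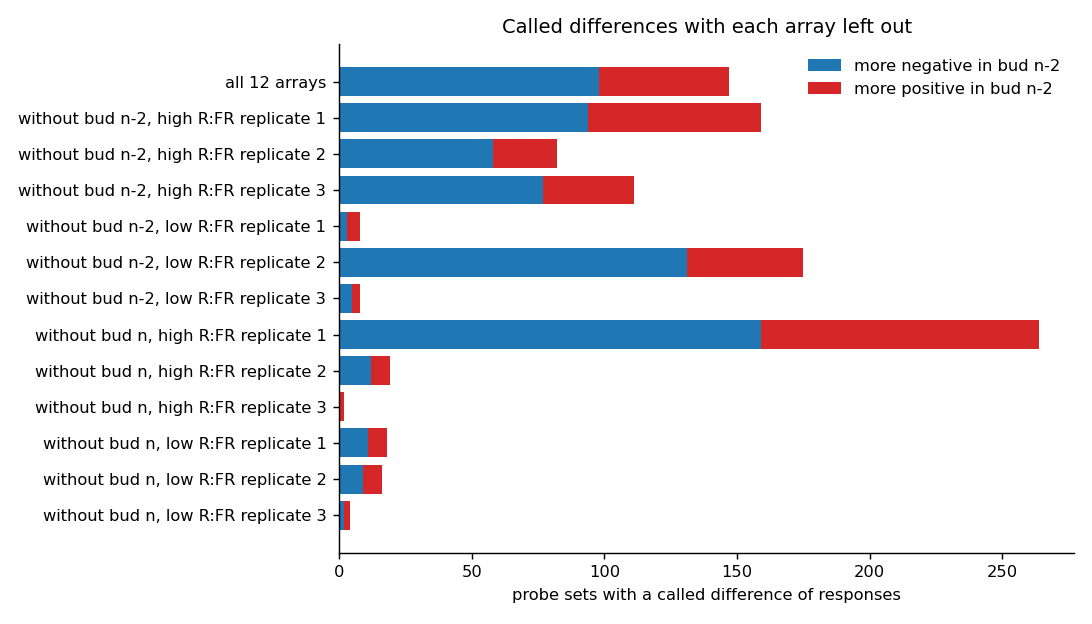
Bars give the number of probe sets with a called difference of responses (x axis, from 0) with all 12 arrays and with each array left out in turn, split into lower (blue) and higher (red) responses in bud n-2. The number runs from 2 to 264, against 147 with all arrays.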

How the data were processed

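Per the labels, biotin-labelled RNA of each sample was hybridised to a single-colour Affymetrix ATH1 array, and each deposited value is a linear intensity that the authors made with MAS5 and GCOS, per the submitters' processing notes; the sources used here give neither versions nor a build. Intensities were log2-transformed with no offset. Of 22746 probe sets that are not controls, 14295 were tested, those that exceeded the 40th percentile of the array itself on 3 or more of the 12 arrays. A mean per group was fitted with limma 3.58.1 in R 4.3.3 (lmFit, eBayes with a trend; residual degrees of freedom 8, prior 9.18). Adjustment was by Benjamini-Hochberg over all 14295, and calls were made under 0.05. A fold is a lower bound where all arrays of the dimmer group are dim. The fit was also run on simulated data with independent normal noise and changes added only to bud n-2 at low R:FR. Such data hold no deviations shared within an array, so they cannot show how far the calls depend on single arrays.

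The members and lists were chosen with earlier results of these data known. The lists of ribosomal proteins and assembly factors were written by locus after values were seen, because the annotation used gives no descriptions; roles of genes known only by locus are general knowledge. Gene names come from the platform's annotation, updated by gene ID from RefSeq's table for TAIR10.1; 13513 probe sets have 1 gene, 503 several and 8794 none listed. Named genes are the 15 largest called differences in each direction, the shared and graded genes, up to 10 reversed genes and up to 10 of the bud n-2 class in each direction of response, and up to 4 of each list by smallest p; the brightest probe set stands for a gene. Ribosomal, autophagy, plastid and wall genes beyond these were added to complete a count after their values were seen. The number of arrays limits the precision. No pair of arrays held identical values. No sequences or coordinates are given, and promoters were not analysed here. Alternatives were other filters, median centring, quantile normalization, no trend, 32 added before log2, array weights, a replicate block, dim values raised, each array left out, and, chosen after seeing the data, both arrays of lowest weight left out.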

Additional observations from a re-analysis of the deposited data

Results flagged for a closer look

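The named genes below had a called difference of responses in limma's test with all 12 arrays, and each value is the log2 response in bud n-2 minus that in bud n. No group held the 4 arrays that a test for a single outlying array needs. Ribosomal protein genes among them were AT3G57490 (-0.94), AT2G45710 (-0.66), AT4G30800 (-0.55), AT3G47370 (-0.63), AT1G07070 (-0.80), AT3G11250 (-0.65), AT1G80750 (-0.65), AT3G16780 (-0.71) and AT2G32220 (-0.96). Genes of ribosome assembly were AT4G04940 (-1.16), AT5G62440 (-1.07), AT3G05060 (-0.75), AT3G22660 (-0.80) and AT3G23620 (-0.69). Of the anther list there were AMS (1.17) and sks18 (1.18), and of hormone and growth genes ARR15 (-1.91), GH3.17 (1.16) and ARL (0.94). The other genes with a higher response in bud n-2 were LCR66 (1.42), AT1G21000 (1.35), AT4G29980 (1.29), AT4G14930 (1.18), AT1G11960 (1.17), AT2G39400 (1.01), AT5G18130 (0.95), AT1G80130 (0.90), AT4G33150 (0.90), AT2G21560 (0.89), AT2G26690 (0.85), AT2G41250 (0.77) and AT5G25280 (0.68). The other genes with a lower one were MSRB5 (-1.50), AT1G54020 (-1.22), AT4G35320 (-1.16), AT1G29270 (-1.10), AT2G43550 (-1.03), AT1G66070 (-0.95), AT1G23100 (-0.95), AT1G04770 (-0.89), AT1G66940 (-0.83), AT4G29700 (-0.82), AT3G06035 (-0.72) and AT5G41670 (-0.79). For ARR15 and MSRB5 the low R:FR arrays of bud n-2 were dim, so their values are not folds, and with dim values raised neither difference passed. The adjusted p-values ran from 0.00614 for AT1G21000 and AT4G14930 to 0.0495 for AT4G29700. With no trend in the prior variance 0 of these genes had a called difference. Of all 147 probe sets called, 2 kept their call with each of the 12 arrays left out.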

How the results depend on the processing

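The number of called differences, 147, became 90 with no filter, 231 with quantile normalization and 230 with 32 added. It became 0 with no trend in the prior variance, 444 with array weights and 257 without both arrays of lowest weight. The cause was not tested, also for the fit with no filter, where more probe sets were adjusted over. The bud n-2 class, 120, became 71, 196, 185, 0, 340 and 191 in the same order. The reversed class, 25, became 39 with 32 added, 0 with no trend, 87 with array weights and 58 without both arrays. Graded probe sets, 2, became 1 with no filter, 4 with 32 added and 0 with no trend, and shared ones, 9, became 5 with 32 added and 16 with array weights. The class of bud n alone, 0, held 2 with array weights and 2 without both arrays. Differences with neither response called that were not reversed, 0, numbered 1 with the 60th percentile as filter, 1 with quantile normalization, 2 with 32 added, 2 with dim values raised, 13 with array weights and 4 without both arrays. Calls in bud n, 12, became 24 with array weights, and those of the mean response of both buds, 561, became 306 with no trend. Called ribosomal proteins, 9, became 0 with no trend and 25 with array weights, and called assembly factors, 8, became 0 with no trend.

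With each array left out in turn, called differences ranged from 2 to 264, calls in bud n from 8 to 17, in bud n-2 from 645 to 1629 and of the mean response from 269 to 508. The classes ranged from 2 to 203 (bud n-2), 0 to 3 (bud n), 0 to 53 (reversed), 0 to 2 (graded), 0 to 3 (neither response called, not reversed) and 6 to 12 (shared), ribosomal proteins from 0 to 14 and assembly factors from 0 to 8. Among named genes, 556 of the values with an array left out kept direction and side of the threshold, 341 lost the call and 10 gained it. A further 2 turned, both of psbN, at -0.0645 and -0.0016 in a range that reached 0.2647. Under the other alternatives 636 kept direction and side, 101 lost the call, 13 gained it and 0 turned. The values that kept their side include those of genes never called, such as FHL and HYH, which stayed uncalled. For the shared genes the value is the mean response of both buds. Among the 147 called differences, the median number of arrays left out with the call kept was 4 of 12. Correlations of deviations between same-numbered arrays ran from -0.14 to 0.075 over 18 pairs, with 0 over 0.1. These values cannot show whether same-numbered samples were grown or harvested together. With the replicate block 105 differences were called, 100 of them among the 147.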

Other observations

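The levels of the 2 positions at high R:FR differed for most probe sets with a higher response in bud n-2 and little at the median for those with a lower one. Among the 49 with a higher response in bud n-2, 41 were brighter in bud n-2 than in bud n at high R:FR, with a median log2 difference of 0.58, and 47 at low R:FR, with a median of 1.42. Among the 98 with a lower response, 32 were brighter in bud n-2 at high R:FR, with a median of -0.08, and 2 at low R:FR, with a median of -0.83. Over all probe sets tested the share brighter in bud n-2 was 54.7% at high and 53.7% at low R:FR. These levels come from the same arrays as the differences, so they describe the called probe sets and test nothing further. AT1G21000 is an example of the first kind, whose signals over both lights lay between 29.3 and 37.8 in bud n and between 122 and 372 in bud n-2, and AT5G41670 of the second, with similar signals in 3 groups and lower ones in bud n-2 at low R:FR.

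Further lists gave no called difference in limma's test: histones (7 tested, 1 at an unadjusted p under 0.05), nuclear photosynthesis (7 tested, 0), cell division (3 tested, 0), DNA replication (2 tested, 0) and flavonoid synthesis (3 tested, 1). The same held for glucosinolate synthesis (1 tested, 1), the circadian clock (1 tested, 1) and handling and wounding (1 tested, 0). Over all probe sets 14.9% had such an unadjusted p. In bud n-2, 1 flavonoid gene had a called fall, and the lowest response of that list there was -2.20. The lowest difference of responses on the flavonoid list was -1.955, which did not pass. The glucosinolate gene had a called fall of -1.28 in bud n-2, against a response of -0.28 in bud n that did not pass. Its difference did not pass either. Over all probe sets tested, 5.49% fell in bud n-2, and these lists had only 3 genes and 1 gene tested.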
